A study of Mus musculus with 16 samples.

Results

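Cytochrome P450 genes were taken as the probe sets whose single symbol in the platform annotation begins with Cyp, a digit and a letter, leaving out Cyp21a1, Cyp11a1 and Cyp17a1. Each gene was represented by its brightest probe set, by the mean over all arrays. This gave 36 genes, from 42 probe sets, of the 8252 genes that have a probe set with a single symbol and the 12488 probe sets measured. The study sorted cells from mouse thymus and hybridised their RNA to 16 expression arrays, 2 for each of 8 groups, and every array carried all 36 genes. Medullary thymic epithelial cells (mTEC) were sorted by high or low surface CD80, a costimulatory protein that rises as these cells mature, from wild-type mice (WT-CD80hi-mTEC and WT-CD80lo-mTEC) and from mice labelled as Aire knockouts (AIRE-ko-CD80hi-mTEC and AIRE-ko-CD80lo-mTEC). Unfractionated medullary cells (WT-mTEC), cortical thymic epithelial cells (WT-cTEC), thymic dendritic cells (WT-tDC) and thymic macrophages (WT-tMPh) came from wild-type mice. The sources used here give no strain, age, Aire allele or pooling of animals, and do not say whether a group's 2 samples are different animals. The p-values below therefore measure only the spread between these samples, which may be technical. In sorted bulk RNA, fewer cells with a transcript and less of it per cell cannot be told apart.

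Cytochrome P450 enzymes are haem proteins that insert an oxygen atom into small molecules, using electrons passed on by a reductase or by ferredoxin. Families 1 to 3 mainly oxidise drugs and other foreign compounds and are best known from liver, gut, lung and skin, family 4 hydroxylates fatty acids and eicosanoids, and the higher families make or destroy bile acids, oxysterols, retinoic acid and active vitamin D. Medullary epithelium is known for expressing genes of many other tissues, which exposes developing T cells to their proteins, and Aire is a transcriptional regulator needed for part of that expression. Members of the P450 superfamily, among them liver enzymes, are also targets of autoantibodies in human Aire deficiency. Of the 36 genes, 24 belonged to families 1 to 3, 6 to family 4 and 6 to families 7 and above.

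Promoters are shown for 5 genes on which the comparisons below turn. Cyp26a1 and Cyp3a13 were bright in CD80hi cells of both genotypes. Cyp3a11 and Cyp2d26 were higher in wild-type than in knockout CD80hi cells, and Cyp1b1 was higher in CD80lo than in CD80hi cells. In wild-type CD80hi cells Cyp3a11 and Cyp2d26 read 21.6 to 36.3, where the array medians were 33.9 and 34.35. Each promoter is the 250 bases before the start of the gene in RefSeq (GRCm38.p6), written 5′ to 3′ in the gene's direction. Capitals mark the motifs searched on both strands. The windows are chr19:37697558-37697807 (plus strand) for Cyp26a1, chr5:137921620-137921869 (minus strand) for Cyp3a13, chr5:145879855-145880104 (minus strand) for Cyp3a11, chr15:82794246-82794495 (minus strand) for Cyp2d26 and chr17:79715062-79715311 (minus strand) for Cyp1b1.
Cyp26a1: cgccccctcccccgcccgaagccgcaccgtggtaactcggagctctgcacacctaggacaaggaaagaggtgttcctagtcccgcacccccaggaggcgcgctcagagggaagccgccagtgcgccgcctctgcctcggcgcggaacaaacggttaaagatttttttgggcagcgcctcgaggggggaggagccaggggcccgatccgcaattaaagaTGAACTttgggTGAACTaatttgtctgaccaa
Cyp3a13: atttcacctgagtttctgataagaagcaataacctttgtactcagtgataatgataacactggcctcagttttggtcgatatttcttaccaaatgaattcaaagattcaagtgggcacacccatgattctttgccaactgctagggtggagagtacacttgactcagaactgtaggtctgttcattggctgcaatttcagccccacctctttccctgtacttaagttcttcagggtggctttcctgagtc
Cyp3a11: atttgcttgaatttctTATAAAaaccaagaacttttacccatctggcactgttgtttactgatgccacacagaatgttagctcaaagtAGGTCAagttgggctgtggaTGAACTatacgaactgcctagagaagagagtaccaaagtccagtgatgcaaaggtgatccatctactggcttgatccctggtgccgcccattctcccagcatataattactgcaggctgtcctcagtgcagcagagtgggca
Cyp2d26: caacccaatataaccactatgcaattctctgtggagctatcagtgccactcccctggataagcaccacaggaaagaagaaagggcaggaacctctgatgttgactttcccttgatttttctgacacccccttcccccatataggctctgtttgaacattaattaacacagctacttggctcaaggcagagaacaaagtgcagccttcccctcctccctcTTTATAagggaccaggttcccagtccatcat
Cyp1b1: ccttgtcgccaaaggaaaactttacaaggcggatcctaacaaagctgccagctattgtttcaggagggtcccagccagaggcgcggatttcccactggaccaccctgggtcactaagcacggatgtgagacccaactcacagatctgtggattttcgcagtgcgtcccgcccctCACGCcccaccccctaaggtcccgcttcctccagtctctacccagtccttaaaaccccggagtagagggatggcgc

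The motifs were TATAAA (the TATA box), AGGTCA and AGTTCA (core hexamers of nuclear receptor elements), a direct repeat of AGTTCA with 5 bases between, and GCGTG, the core of the xenobiotic response element. TATAAA stood in 14 of the 30 P450 promoters that could be matched (46.7%), against 13.0% of the 27025 RefSeq promoters of the same length. AGGTCA stood in 10 of 30 (33.3%, against 13.8%), AGTTCA in 4 of 30 (13.3%, against 11.9%) and GCGTG in 4 of 30 (13.3%, against 28.2%). The direct repeat occurred in 6 of the 27025 promoters (0.0222%), and the window of Cyp26a1, which degrades retinoic acid, was 1 of these, with the repeat read on the opposite strand from bases -32 to -16. That repeat contains the pair of AGTTCA matches of the same window. No other repeat or spacing was searched, so the rarity of this one does not mark Cyp26a1 out. Cyp3a11 held TATAAA at bases -234 to -229, away from the place of a TATA box, and both hexamers, Cyp2d26 held TATAAA (on the opposite strand) and Cyp1b1 held GCGTG (on the opposite strand), while none of these letters stood in the Cyp3a13 window. A match describes the letters only.

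The sorted groups carried most of the markers of their labels. Summed signals of 7 medullary markers were 2677.4 to 2697.8 in wild-type CD80hi cells and 297.5 to 414.4 in wild-type CD80lo cells. The list holds Cd80, on which the cells were sorted, and Aire, whose signals are given below. These sums are therefore no independent check of the labels. In knockout cells they were 2201.1 to 2633.5 in CD80hi and 671 to 2044.9 in CD80lo cells, so that 1 knockout CD80lo array came near the CD80hi arrays. Those of 7 dendritic cell markers were 6732.9 to 6997.9 in dendritic cells, and those of 10 macrophage markers were 10095.1 to 15584.3 in macrophages. The medullary keratins Krt5 and Krt14 did not exceed 18.2 on any array. The Aire probe set gave 1589.1 and 1385.3 in knockout and 1828.6 and 1704.5 in wild-type CD80hi cells; the sources used here do not say where it lies relative to the knockout allele, so it checks nothing, and knockout below means labelled as such. Array 1 of both knockout groups had a higher signal of an 18S ribosomal RNA control probe set (562 and 1893.2) than array 2 (48.2 and 286.6). Macrophage array 1 carried epithelial keratin (Krt8 at 1212.6, against 172.2 on array 2), and 7 thymocyte markers summed to 1426.8 to 2494.6 in cortical cells, 1436 to 1632.8 in dendritic cells and 933.1 to 2531.7 in macrophages, against 131.3 to 153.8 in unfractionated mTEC. The part of these in the results was not tested.

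More P450 genes were above the dim range in wild-type CD80hi cells than in any other group. A signal is a linear intensity scaled by array, and 17.3, the 40th percentile of all values, was taken as the limit of dimness. On both wild-type CD80hi arrays 23 of the 36 genes exceeded it, and on the unfractionated mTEC arrays 18 and 21 did. The knockout CD80hi arrays had 13 and 13, the wild-type CD80lo arrays 11 and 9 and the knockout CD80lo arrays 10 and 16. Cortical cells had 12 and 10, dendritic cells 8 and 8 and macrophages 13 and 7. Over all probe sets other than controls, the share above the limit was 52.9% to 64.7% on the 16 arrays, with 63.4% and 64.5% in wild-type CD80hi cells and 57.9% and 62.9% in knockout CD80hi cells. This count weighs a gene just above the limit like a bright one, and most genes were dim: the map of all 36 genes shows few that stood far above it.

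**Figure D1:**
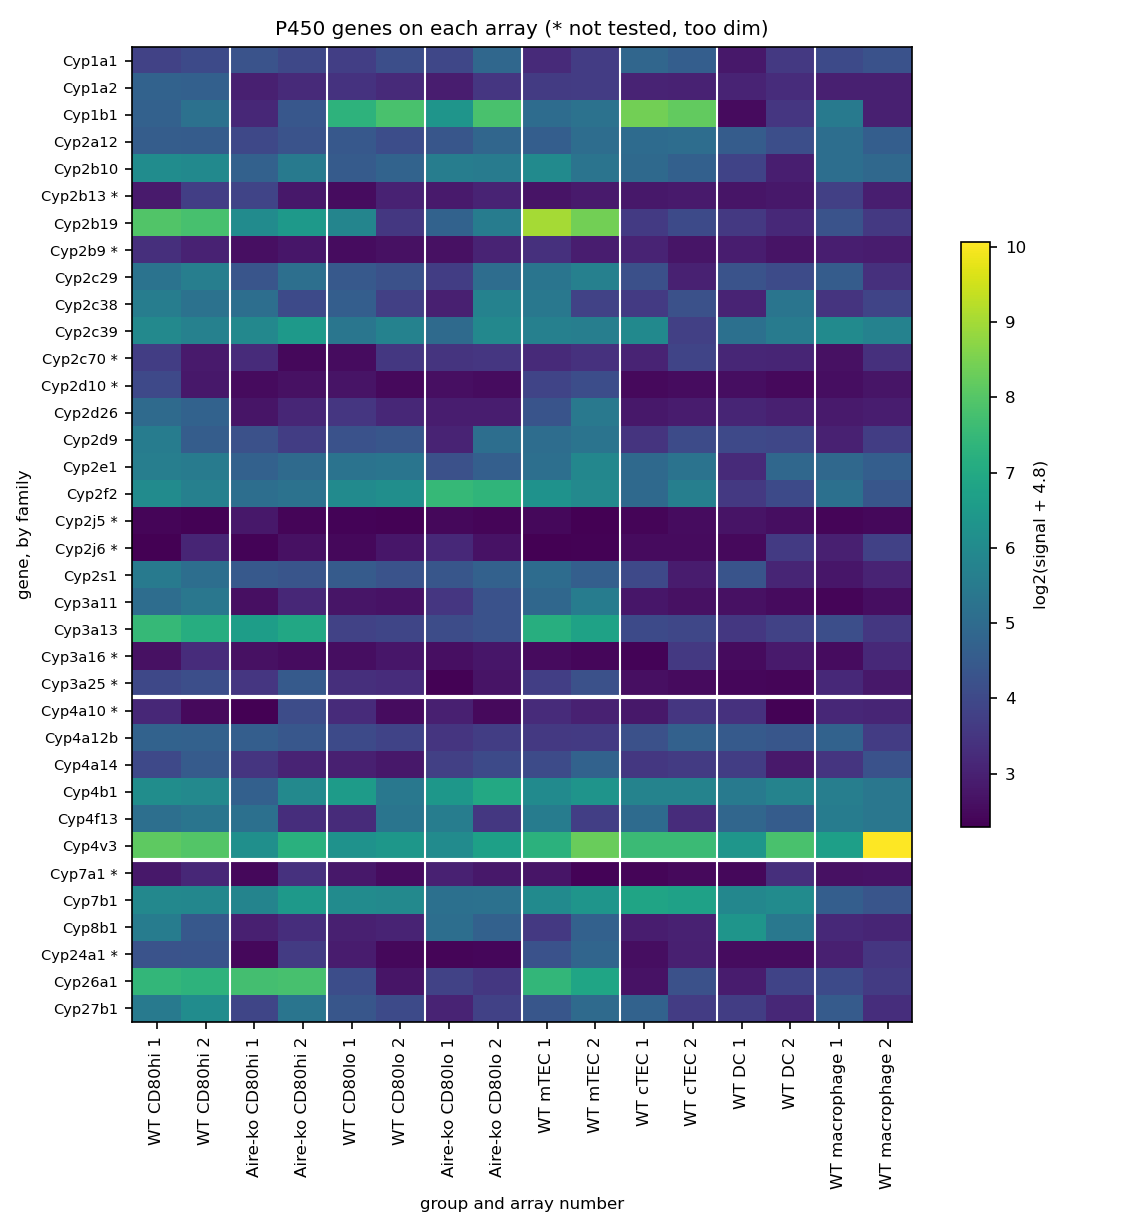
Signal of the 36 P450 genes (rows, grouped by family, separated by white lines) on the 16 arrays (columns, in pairs by group), as log2(signal + 4.8) in colour. Genes marked with an asterisk were too dim to be tested; Cyp26a1, Cyp3a13 and Cyp2b19 are bright in the CD80hi and unfractionated medullary columns, and Cyp1b1 in the CD80lo and cortical columns.

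Testing was limited to probe sets above 17.3 on at least 2 arrays, and 25 of the 36 genes passed this (16 of families 1 to 3, 5 of family 4 and 4 of the higher families). The others were Cyp2b9, Cyp2b13, Cyp2c70, Cyp2d10, Cyp2j5, Cyp2j6, Cyp3a16, Cyp3a25, Cyp4a10, Cyp7a1 and Cyp24a1, whose signals did not exceed 23.5 on any array. They include Cyp7a1, the rate-limiting enzyme of bile acid synthesis, at 0.4 to 5.8 over the 16 arrays. Cyp24a1, which degrades active vitamin D, read 14.6 and 15.2 in wild-type CD80hi cells and 14.4 and 23.5 in unfractionated mTEC, and at most 7.6 on the other 12 arrays. Of the 25 tested genes, 6 were above the limit on both arrays of 1 group only and 1 on both arrays of none. Cyp1a2 passed only through the 2 wild-type CD80hi arrays, and Cyp2d26, Cyp3a11 and Cyp4a14 only through wild-type CD80hi and unfractionated mTEC arrays. Cyp26a1 and Cyp3a13 passed only through unfractionated mTEC arrays and CD80hi arrays of both genotypes. For such genes the filter favours higher signals of these groups in the comparisons below. The share of tested genes called below is also not a share of all P450 genes. The 2 arrays per group limit the precision.

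In wild-type mTEC, 8 of the 25 tested P450 genes were higher and 1 was lower in CD80hi than in CD80lo cells, where 7.98% and 4.74% of all 9319 tested probe sets were (12.7% in either direction). The median difference of the 25 genes in log2(signal + 4.8), CD80hi minus CD80lo, was 1.08, against -0.04 over all tested probe sets, and 21 of the 25 differences were above 0. The share of all tested probe sets above 0 was not counted. The filter favours this direction for the genes named above that passed only through CD80hi or unfractionated mTEC arrays. Higher were the retinoic acid hydroxylase Cyp26a1, the bile acid enzyme Cyp8b1 and 6 genes of families 1 to 3 (Cyp1a2, Cyp2b10, Cyp2b19, Cyp2d26, Cyp3a11 and Cyp3a13), and lower was Cyp1b1. Differences are given on this log2 scale with the standard error of the limma fit after ±, and adjusted p-values are from limma with Benjamini-Hochberg adjustment over all tested probe sets; the added constant makes differences of dim genes smaller.

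Cyp26a1, which clears retinoic acid, had signals of 166.7 and 155.5 in wild-type CD80hi and 209.5 and 216.8 in knockout CD80hi cells, against 12.7 and 1.8 in wild-type CD80lo and 9.3 and 6.9 in knockout CD80lo cells. It gave 168.3 and 111.3 in unfractionated mTEC, 1.6 and 13.7 in cortical cells, 2.6 and 9.6 in dendritic cells and 11.5 and 7.7 in macrophages. The 6 arrays of CD80hi and unfractionated medullary cells thus all lay above the other 10 arrays, with a lowest signal of 111.3 against a highest of 13.7. The wild-type CD80hi excess was 3.95 ± 0.53 (adjusted p = 0.000218), and the knockout excess was 4.08 ± 0.53 (adjusted p = 0.000192). In wild-type cells the vitamin D-activating Cyp27b1 (39.9 and 63.1 in CD80hi, 16.1 and 11.6 in CD80lo cells) differed by 1.57 ± 0.56, which did not pass (adjusted p = 0.0877).

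Of the 4 drug-metabolising Cyp3a genes, Cyp3a13 and Cyp3a11 were tested, and both were higher in wild-type CD80hi cells. Cyp3a13 read 175.1 and 134.2 in wild-type CD80hi and 93.7 and 120 in knockout CD80hi cells, 9.4 and 10.4 in wild-type CD80lo and 12.2 and 14.2 in knockout CD80lo cells, and 138.4 and 103.9 in unfractionated mTEC. Its cortical signals were 11.5 and 10.7, those of dendritic cells 6.9 and 9.4 and those of macrophages 13.2 and 6.9, so that no array outside the CD80hi and unfractionated medullary groups exceeded 14.2. Its wild-type difference was 3.43 ± 0.33 (adjusted p = 2.14e-05). Cyp3a11, the main liver enzyme of this subfamily in mice, read 29 and 36.3 in wild-type CD80hi cells and 24.9 and 42 in unfractionated mTEC, but 1.3 and 4.1 in knockout CD80hi, 6.7 and 14.2 in knockout CD80lo and 1.9 and 1.6 in wild-type CD80lo cells. On the 6 cortical, dendritic and macrophage arrays it lay between 0.5 and 2, and the wild-type difference was 2.51 ± 0.40 (adjusted p = 0.000685). In RefSeq, Cyp3a11 lies beside Cyp3a25, and 122 genes stand between Cyp3a13 and the next measured member of the subfamily, Cyp3a16.

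Among the Cyp2 genes, Cyp2b19, an arachidonic acid epoxygenase of skin keratinocytes, had the largest difference. It gave 240.6 and 219.8 in wild-type CD80hi cells and 513.6 and 336.9 in unfractionated mTEC, 61.2 and 84.1 in knockout CD80hi, 51.9 and 6.9 in wild-type CD80lo and 21.8 and 42 in knockout CD80lo cells. The cortical arrays read 7.5 and 11.5, the dendritic arrays 7.2 and 4.4 and the macrophage arrays 14.8 and 7.1. The wild-type groups did not overlap (3.19 ± 0.58, adjusted p = 0.00183), although the CD80lo arrays differed widely. Cyp2b10, a phenobarbital-inducible liver enzyme, read 61.8 and 58.5 in wild-type CD80hi against 18 and 22.2 in CD80lo cells (1.39 ± 0.39, adjusted p = 0.0312), and Cyp2d26, of the drug-oxidising subfamily 2D, read 26.7 and 21.6 against 6.6 and 4.2 (1.51 ± 0.41, adjusted p = 0.0237). Cyp1a2, known from liver for oxidising aromatic amines, read 21.7 and 20.5 against 5.9 and 4.5 (1.38 ± 0.35, adjusted p = 0.0186). Its neighbour in the genome, Cyp1a1, read 9.4 and 11.6 against 8.6 and 13 and did not pass (-0.02 ± 0.41, 95% interval -0.90 to 0.87).

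Cyp8b1, the sterol hydroxylase that sets the share of cholic acid in bile, read 42 and 16.7 in wild-type CD80hi and 3 and 3.6 in wild-type CD80lo cells (1.97 ± 0.47, adjusted p = 0.0125). Cyp1b1, an enzyme of tissues outside the liver that oxidises oestrogens and polycyclic hydrocarbons, ran the other way: 21.5 and 31.7 in CD80hi against 154.1 and 225 in CD80lo cells (-2.62 ± 0.69, adjusted p = 0.0213). In the same comparison 6 fibroblast markers summed to 600.8 to 631.7 in CD80hi and 1148.2 to 1306 in CD80lo cells, with a median difference of -0.10. Of the 6, Col3a1 and Dcn were called lower, and both calls were lost without any 1 of the 4 arrays (adjusted p 0.096 to 0.309 and 0.0883 to 0.237) and with a constant of 1 (0.0657 and 0.0539). Cortical epithelial markers (4 genes, 2 called lower) summed to 2466.6 to 2749.6 in CD80hi and 3872 to 5340.6 in CD80lo cells, and endothelial markers (6 genes, 2 called lower) to 83.2 to 96.8 and 179 to 303.1. The part of these markers in the Cyp1b1 difference was not tested. Family 4, with fatty acid hydroxylases such as Cyp4a14 and Cyp4b1, had 0 of 5 tested genes past the threshold. At an unadjusted limma p under 0.05 there were 2, a cut at which the share of all tested probe sets was not counted. The calls of Cyp1a2, Cyp1b1, Cyp2b10 and Cyp2d26 were each lost without any 1 of the 4 wild-type CD80-sorted arrays, with adjusted p-values of 0.0712 to 0.133, 0.0694 to 0.158, 0.105 to 0.185 and 0.0711 to 0.171. That of Cyp8b1 was lost without CD80hi array 1 (0.179), CD80lo array 1 (0.0798) or CD80lo array 2 (0.0664). The count of 9 fell to 4 without CD80hi array 1 or either CD80lo array, and to 5 without CD80hi array 2. With a constant of 1 in place of 4.8 the calls of Cyp1a2 (0.0519), Cyp1b1 (0.0728), Cyp2b10 (0.0635) and Cyp2d26 (0.0512) were lost, without a filter that of Cyp2b10 (0.0505), and with the mean over probe sets that of Cyp1b1 (0.0654).

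**Figure D2:**
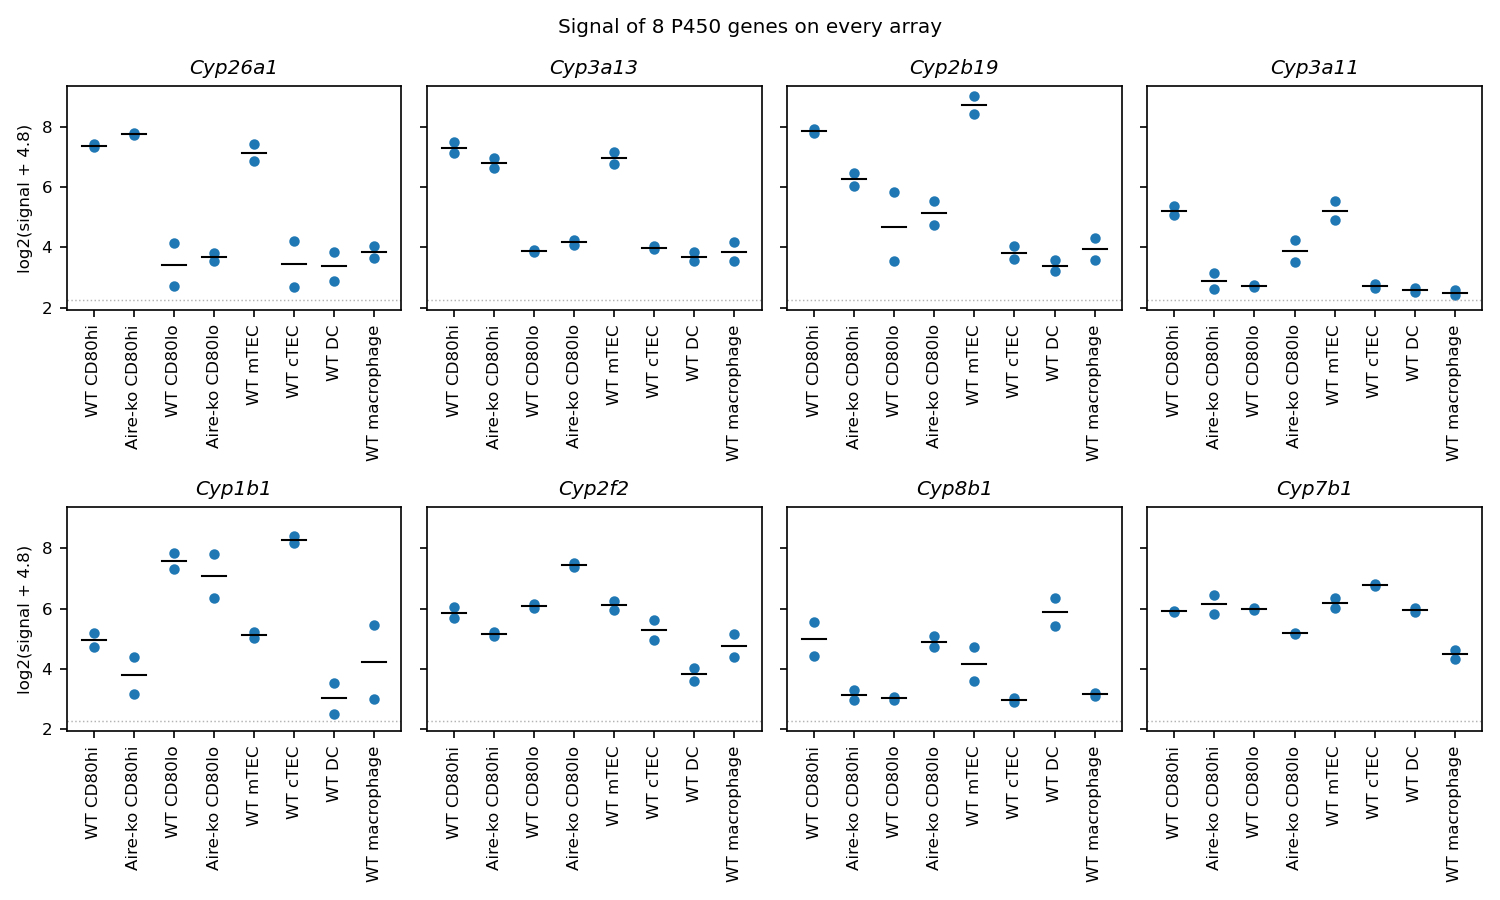
Signal of 8 P450 genes as log2(signal + 4.8), a point per array and a line at the mean of the 2 arrays, for the 8 groups; the dotted line marks a signal of 0. Cyp26a1 and Cyp3a13 are high in CD80hi cells of both genotypes, Cyp3a11 is highest in wild-type CD80hi and unfractionated mTEC, and Cyp1b1 in CD80lo and cortical cells.

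Within CD80hi cells, 0 of the 25 tested P450 genes were higher and 3 were lower in knockout than in wild type, where 2.88% of tested probe sets were lower (3.05% in either direction). They were the liver-type genes Cyp3a11 (-2.34 ± 0.40, adjusted p = 0.00433), Cyp2d26 (-1.92 ± 0.41, adjusted p = 0.0166) and Cyp1a2 (-1.60 ± 0.35, adjusted p = 0.0223). A probe set that the annotation gives to both Cyp3a16 and Cyp3a11 did not pass here (-0.96 ± 0.40, limma adjusted p = 0.34). Cyp2d26 read 1.8 and 4 in knockout CD80hi cells and 2.8 and 2.8 in knockout CD80lo cells, and Cyp1a2 read 3.1 and 4.5 and 2.8 and 6.7, so that in knockout cells neither gene rose above the limit of 17.3 in either fraction. The median difference of the 25 genes, knockout minus wild type, was -0.90, against -0.05 over all tested probe sets, and 21 of the 25 were below 0. All 3 called genes exceeded 17.3 only on wild-type CD80hi or unfractionated mTEC arrays, so the filter favoured lower knockout signals for them. The share of all tested probe sets below 0 was not counted. The 10 macrophage markers summed to 1251.6 to 1564.2 in wild-type and 732.7 to 948 in knockout CD80hi cells, with a median difference of -0.55 and 1 of the 9 tested (Cd14) called lower, and their part in these differences was not tested. This comparison shares the wild-type CD80hi arrays with the one above.

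Cyp26a1 and Cyp3a13 were not called between genotypes. Their knockout minus wild-type differences in CD80hi cells were 0.39 ± 0.53 (95% interval -0.75 to 1.54) and -0.51 ± 0.33 (95% interval -1.22 to 0.20). Cyp2b19, at 61.2 and 84.1 in knockout against 240.6 and 219.8 in wild type, did not overlap but did not pass (-1.62 ± 0.58, adjusted p = 0.221). Cyp8b1, at 3 and 5.1 against 42 and 16.7, stood just outside the threshold (-1.85 ± 0.47, adjusted p = 0.051). The call of Cyp1a2 was lost without any 1 of the 4 CD80hi arrays (adjusted p 0.058 to 0.187), when only the 2 groups compared were fitted (0.107), with a constant of 1 (0.0653) and without array 1 of both knockout groups (0.0922). That of Cyp2d26 was lost without knockout array 1 (0.14), wild-type array 1 (0.184) or wild-type array 2 (0.0878), with only the groups compared (0.0605) and without array 1 of both knockout groups (0.135). That of Cyp3a11 was lost without wild-type array 2 (0.0595). Without knockout array 1 or wild-type array 1 the count of 3 fell to 1, without wild-type array 2 to 0, and without array 1 of both knockout groups, chosen after the 18S signals were seen, to 1.

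Within CD80lo cells 0 of the 25 tested genes passed in limma, against 0.322% of tested probe sets (0.279% higher and 0.0429% lower). Before adjustment 6 had a limma p under 0.05, 5 of them higher in the knockout. The share of all tested probe sets at that cut was not counted, so these 6 are given for their values only. Cyp8b1 read 29.4 and 21.5 in knockout and 3 and 3.6 in wild-type CD80lo cells (1.89 ± 0.47, adjusted p = 0.174). Cyp2f2, which oxidises naphthalene in airway club cells, read 176.6 and 162.9 against 60.1 and 66 (1.36 ± 0.36, adjusted p = 0.213), and Cyp3a11 read 6.7 and 14.2 against 1.9 and 1.6 (1.17 ± 0.40, adjusted p = 0.513). Cyp7b1, an oxysterol hydroxylase, was the gene of the 6 with a lower knockout signal, at 31.1 and 31.5 against 60.5 and 57 (-0.82 ± 0.31, adjusted p = 0.639). The other 2 were Cyp2b10 (0.93 ± 0.39) and Cyp4a14 (1.01 ± 0.43).

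**Figure D3:**
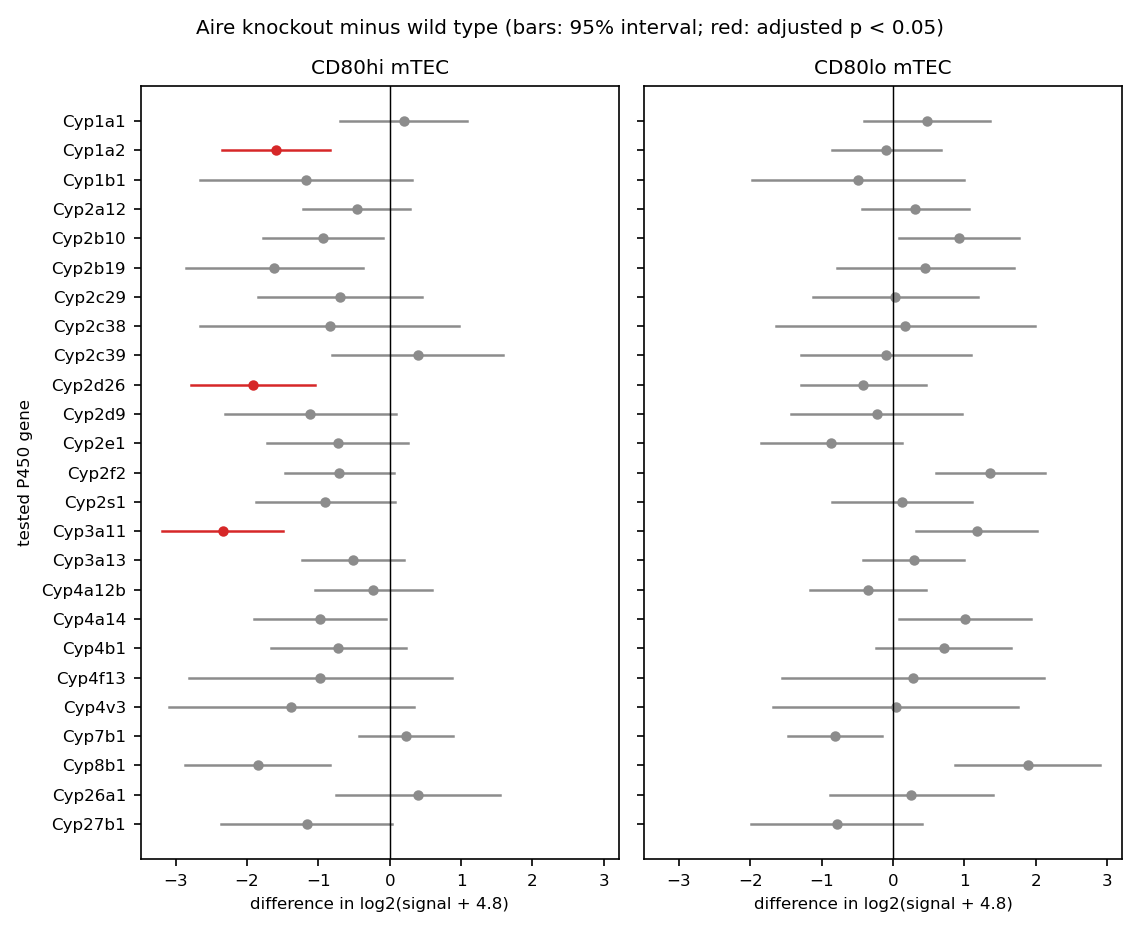
Knockout minus wild-type differences of the 25 tested P450 genes in log2(signal + 4.8), in CD80hi cells (left) and CD80lo cells (right); bars are 95% intervals of the limma fit and red marks an adjusted p under 0.05. In CD80hi cells 21 of the 25 points lie below 0, a share not counted over all tested probe sets. There 3 are red, genes for which the filter favoured lower knockout signals, and in CD80lo cells none is red. Of all tested probe sets 3.05% were called in CD80hi and 0.322% in CD80lo cells.

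In knockout mTEC 2 of the 25 genes were higher and 3 were lower in CD80hi than in CD80lo cells, with a background of 5.93% higher and 6.87% lower (12.8% in either direction). The median difference was -0.12, against -0.03 over all tested probe sets. Higher were Cyp26a1 (above) and Cyp3a13 (2.63 ± 0.33, adjusted p = 0.000149), the genes with the largest wild-type differences too. Wild-type and knockout differences come from separate arrays, but both comparisons share the filter and the spread fitted over all 16 arrays. Cyp26a1 and Cyp3a13 passed that filter only through CD80hi and unfractionated mTEC arrays, which favours this direction. Lower were Cyp1b1, at 4.2 and 16.3 in CD80hi against 76.6 and 221 in CD80lo cells (-3.30 ± 0.69, adjusted p = 0.00544), Cyp2f2, at 29.3 and 32.5 against 176.6 and 162.9 (-2.29 ± 0.36, adjusted p = 0.000663), and Cyp8b1, at 3 and 5.1 against 29.4 and 21.5 (-1.77 ± 0.47, adjusted p = 0.023). Cyp2f2 in wild-type cells read 61.5 and 46.4 in CD80hi against 60.1 and 66 in CD80lo cells, which overlap. The 6 fibroblast markers summed to 944.9 to 1043.4 in knockout CD80hi and 1302.4 to 1759.1 in knockout CD80lo cells, and the 4 cortical markers to 2176.7 to 3236.9 and 3002.1 to 4794.7, beside the Cyp1b1 values, and their part was not tested.

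The Cyp1b1 call in knockout cells was lost without knockout CD80hi array 1 (adjusted p = 0.0626) or knockout CD80lo array 2 (0.0661), and without array 1 of both knockout groups (0.0546). That of Cyp8b1 was lost without any 1 of the 4 knockout arrays (0.0534 to 0.134), with only the groups compared (0.0689) and without array 1 of both knockout groups (0.314). The count of 5 fell to 3 without knockout CD80lo array 2 and also without array 1 of both knockout groups.

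The CD80hi minus CD80lo difference itself differed between the genotypes for 2 of the 25 genes, both with a lower value in knockout, where 1.3% of tested probe sets passed (all of them lower). Cyp3a11 differed by 2.51 in wild type and by -1.0 in knockout cells, where the difference did not pass (adjusted p = 0.124), a gap of -3.51 ± 0.56 (adjusted p = 0.00675). A probe set that the annotation gives to both Cyp3a16 and Cyp3a11 did not show this reversal, with 6.8 and 10.3 in knockout CD80hi against 3.1 and 6.1 in knockout CD80lo cells (0.51 ± 0.40) and a gap of -1.29 ± 0.56 (adjusted p = 0.516). Cyp8b1 differed by 1.97 in wild type and by -1.77 in knockout cells, a gap of -3.74 ± 0.67 (adjusted p = 0.0132). For Cyp2f2 the gap of -2.07 ± 0.50 did not pass (adjusted p = 0.0645). For Cyp26a1 it was 0.14 ± 0.76 (95% interval -1.48 to 1.76), and for Cyp3a13 -0.80 ± 0.47 (95% interval -1.81 to 0.20). The median gap of the 25 genes was -1.01, against 0.01 over all tested probe sets. The Cyp8b1 call was lost without knockout CD80hi array 1 (0.0552), knockout CD80lo array 1 (0.0563), wild-type CD80hi array 1 (0.0933), wild-type CD80lo array 1 (0.0534) or wild-type CD80lo array 2 (0.058), and without array 1 of both knockout groups (0.15). The count of 2 fell to 1 without any 1 of these except wild-type CD80lo array 1, where it was 2 with another gene called.

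**Figure D4:**
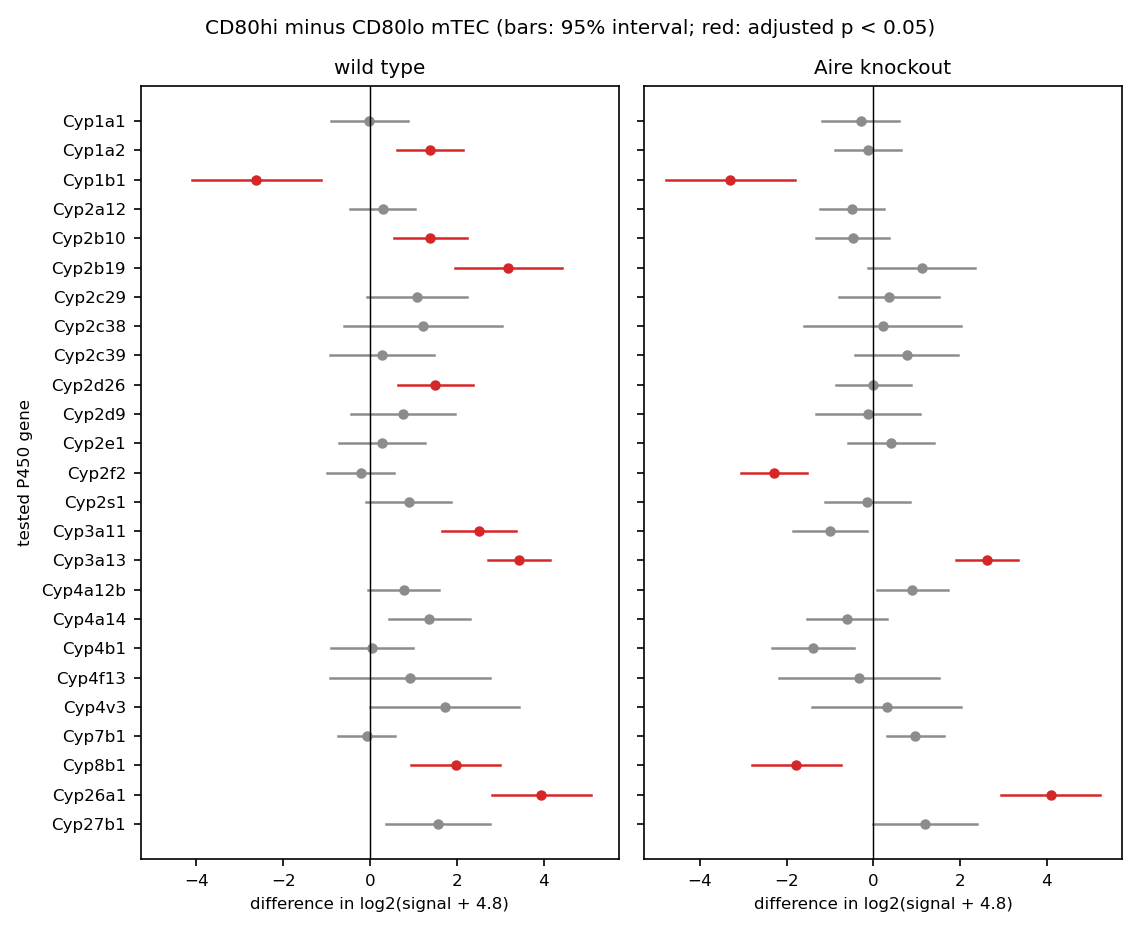
CD80hi minus CD80lo differences of the 25 tested P450 genes in log2(signal + 4.8), in wild-type cells (left) and in knockout cells (right); bars are 95% intervals of the limma fit and red marks an adjusted p under 0.05. Cyp26a1 and Cyp3a13 are far right of 0 and Cyp1b1 left of it on both sides, whereas the points of Cyp8b1 and Cyp3a11 lie on opposite sides, that of Cyp3a11 in knockout cells not past the threshold.

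Unfractionated mTEC had 6 higher and 1 lower P450 genes of 25 against cortical epithelium (11.1% and 4.25% of tested probe sets, 15.4% in either direction), 9 higher and 1 lower against dendritic cells (16.8% and 7.58%, 24.3% in either direction), and 9 higher and 0 lower against macrophages (14.6% and 7.37%, 22% in either direction). Median differences of the 25 genes were 0.78, 1.14 and 0.91, against -0.03, 0.10 and 0.01 over all tested probe sets. The 3 comparisons share the mTEC arrays. Cyp2b19, Cyp26a1, Cyp3a13, Cyp3a11 and Cyp2d26 were higher in mTEC in all 3. Of these, Cyp26a1, Cyp3a13, Cyp3a11 and Cyp2d26 passed the filter only through CD80hi or unfractionated mTEC arrays, which favours this direction. Cyp2b19 had the largest differences, 4.89 ± 0.58 against cortical cells, 5.32 ± 0.58 against dendritic cells and 4.78 ± 0.58 against macrophages (adjusted p = 4.91e-05, 1.14e-05 and 3.4e-05). Those of Cyp26a1 were 3.70, 3.78 and 3.31, those of Cyp3a13 2.97, 3.27 and 3.10, and those of Cyp3a11 2.51, 2.65 and 2.72, with adjusted p-values of 6.7e-06 to 0.000507. Cyp2d26, at 14.9 and 38 in mTEC and 2.1 to 3.8 on the 6 other arrays, gave 2.02, 1.83 and 1.97 (adjusted p = 0.00314, 0.00394 and 0.00253). Without mTEC array 2 its call against cortical cells (0.0566) and against dendritic cells (0.0695) was lost.

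Cyp1b1 separated the 2 epithelia: 27.9 and 32.6 in mTEC against 331.7 and 286.4 in cortical cells (-3.16 ± 0.69, adjusted p = 0.00577), its highest signals in the series. Against the dendritic cells (0.9 and 6.8) it was higher in mTEC (2.10 ± 0.69, adjusted p = 0.0389), and against macrophages (38.9 and 3.1) it was not called. The fibroblast markers summed to 549.3 to 623.1 in mTEC, 1043.7 to 1384.8 in cortical cells, 397 to 503.5 in dendritic cells and 626.1 to 1468.2 in macrophages. The 4 cortical markers summed to 2389.7 to 3437.8 in mTEC, 6033.7 to 9980.9 in cortical cells, 288.5 to 837.3 in dendritic cells and 1687.1 to 4165.6 in macrophages. The part of both lists in the Cyp1b1 values was not tested. In the order of levels over the series, the cortical arrays of Cyp1b1 lay above all CD80lo arrays, and the wild-type and knockout CD80lo arrays overlapped. The call against dendritic cells was lost without dendritic array 1 (0.239), mTEC array 1 (0.113) or mTEC array 2 (0.159), after quantile normalisation (0.0696) and with a constant of 17.3 (0.0865), without a filter (0.0526) and with the mean over probe sets (0.0768).

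The other genes called in these comparisons were mostly higher in medullary cells. Cyp2c29, a liver epoxygenase, read 34.8 and 46.8 in mTEC against 13.3 and 3.2 in cortical cells (1.91 ± 0.54, adjusted p = 0.0256). Against dendritic cells, Cyp2f2 (71.9 and 57.3 against 7.3 and 11.5, 2.30 ± 0.36, adjusted p = 0.000255) and Cyp2b10 (59.2 and 34 against 9.8 and 2.9, 2.23 ± 0.39, adjusted p = 0.00072) were higher. The ethanol-oxidising Cyp2e1, at 30.5 and 54.4 against 4.5 and 24.5, was higher too (1.47 ± 0.46, adjusted p = 0.0307). Cyp8b1 was the gene with a higher signal in dendritic cells, at 75.9 and 37.9 against 7.3 and 21.4 in mTEC (-1.72 ± 0.47, adjusted p = 0.0151). These were its highest signals in the series. The 7 dendritic cell markers summed to 1634.8 to 1802 in wild-type and 2013.7 to 3318.1 in knockout CD80hi cells, where Cyp8b1 read 42 and 16.7 and 3 and 5.1, and to 856.1 to 1228.8 in unfractionated mTEC. Their part in the Cyp8b1 values was not tested.

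Against macrophages, Cyp7b1 read 59.5 and 76 in mTEC against 19.9 and 15.4 (1.69 ± 0.31, adjusted p = 0.000981), and its other tested probe set, at 56.4 and 39.1 against 12.5 and 4.7, passed as well (2.02 ± 0.39, adjusted p = 0.0015). Cyp2s1, an enzyme of barrier epithelia, read 28 and 20.4 against 2 and 3.5 (1.94 ± 0.46, adjusted p = 0.00644). Cyp2d9, a liver steroid hydroxylase, read 28.8 and 33.9 against 3.3 and 8.1 (1.82 ± 0.56, adjusted p = 0.0299), and Cyp2f2 read 71.9 and 57.3 against 30.6 and 16 (1.35 ± 0.36, adjusted p = 0.0131). None of these groups overlapped.

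Several of these calls were lost when 1 array was left out, which leaves 1 array in that group. Such a loss need not mean a smaller difference: without mTEC array 1 it was 2.10 for Cyp2c29 and 1.92 for Cyp2d9, no smaller than with all arrays. Cyp2c29 was lost without cortical array 2 (1.32, adjusted p = 0.243), mTEC array 1 (0.0738) or mTEC array 2 (0.161), and Cyp2e1 without dendritic array 1 (0.64, adjusted p = 0.372) or mTEC array 2 (0.239), after quantile normalisation (0.0918) and with only the groups compared (0.139). Cyp8b1 against dendritic cells was lost without dendritic array 1 (0.163) or mTEC array 1 (0.171), and with only the groups compared (0.0568). Against macrophages, Cyp2d9 was lost without macrophage array 1 (0.163), mTEC array 1 (0.0933) or mTEC array 2 (0.142) and after quantile normalisation (0.0622). Cyp2f2 was lost without macrophage array 2 (0.127) or mTEC array 1 (0.101) and with only the groups compared (0.0901), and Cyp2s1 without mTEC array 1 (0.0595). The calls of Cyp2b19, Cyp26a1, Cyp3a13, Cyp3a11 and Cyp7b1 passed with any 1 array of the groups compared left out.

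The remaining arrays of the called genes were mostly dim. Cyp2f2 read 26 and 44.9 in cortical cells, and Cyp8b1 read 2.7 and 3.3 there and 4.4 and 3.8 in macrophages. Cyp2b10 read 21.2 and 39.7 in knockout CD80hi, 43.3 and 41.4 in knockout CD80lo, 26.3 and 20.9 in cortical cells and 29.4 and 25.6 in macrophages, so that its knockout fractions did not show the wild-type order. Cyp1a2 read 7.6 and 7.9 in mTEC and 3 to 4.9 on the cortical, dendritic and macrophage arrays, and thus was not above the limit of 17.3 in unfractionated mTEC. Cyp2d26 read 2.1 and 2.6 in cortical cells, 3.8 and 3 in dendritic cells and 2.4 and 2.8 in macrophages.

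Cyp2c29, Cyp2d9, Cyp2e1 and Cyp2s1 were called in 1 comparison each, and in wild type their CD80hi signals lay above their CD80lo signals without a call. Cyp2c29 read 32.9 and 44.2 in wild-type CD80hi, 17.3 and 13.8 in wild-type CD80lo, 15.4 and 30.2 in knockout CD80hi and 8.1 and 28.5 in knockout CD80lo cells, with 14.6 and 12.1 in dendritic cells and 18.7 and 5.5 in macrophages. Cyp2d9 read 41.8 and 19.4, 14.1 and 15.9, 13.8 and 8.2, and 3.5 and 29.5 in the same order, with 6.3 and 11.9 in cortical and 11.2 and 10.7 in dendritic cells. The knockout CD80lo arrays of both genes differed widely between the samples. Cyp2e1 read 44.5 and 41.1, 33.6 and 35.3, 21.5 and 26.5, and 13.7 and 20.3 in that order, with 26.2 and 33.2 in cortical cells and 25.7 and 19.7 in macrophages. Cyp2s1 read 39.8 and 29.6, 18 and 14.7, 17.1 and 15.3, and 15.7 and 21.1, with 11.3 and 2.6 in cortical and 15.1 and 3.7 in dendritic cells. For both, the wild-type CD80hi arrays lay above every other CD80-sorted array.

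**Figure D5:**
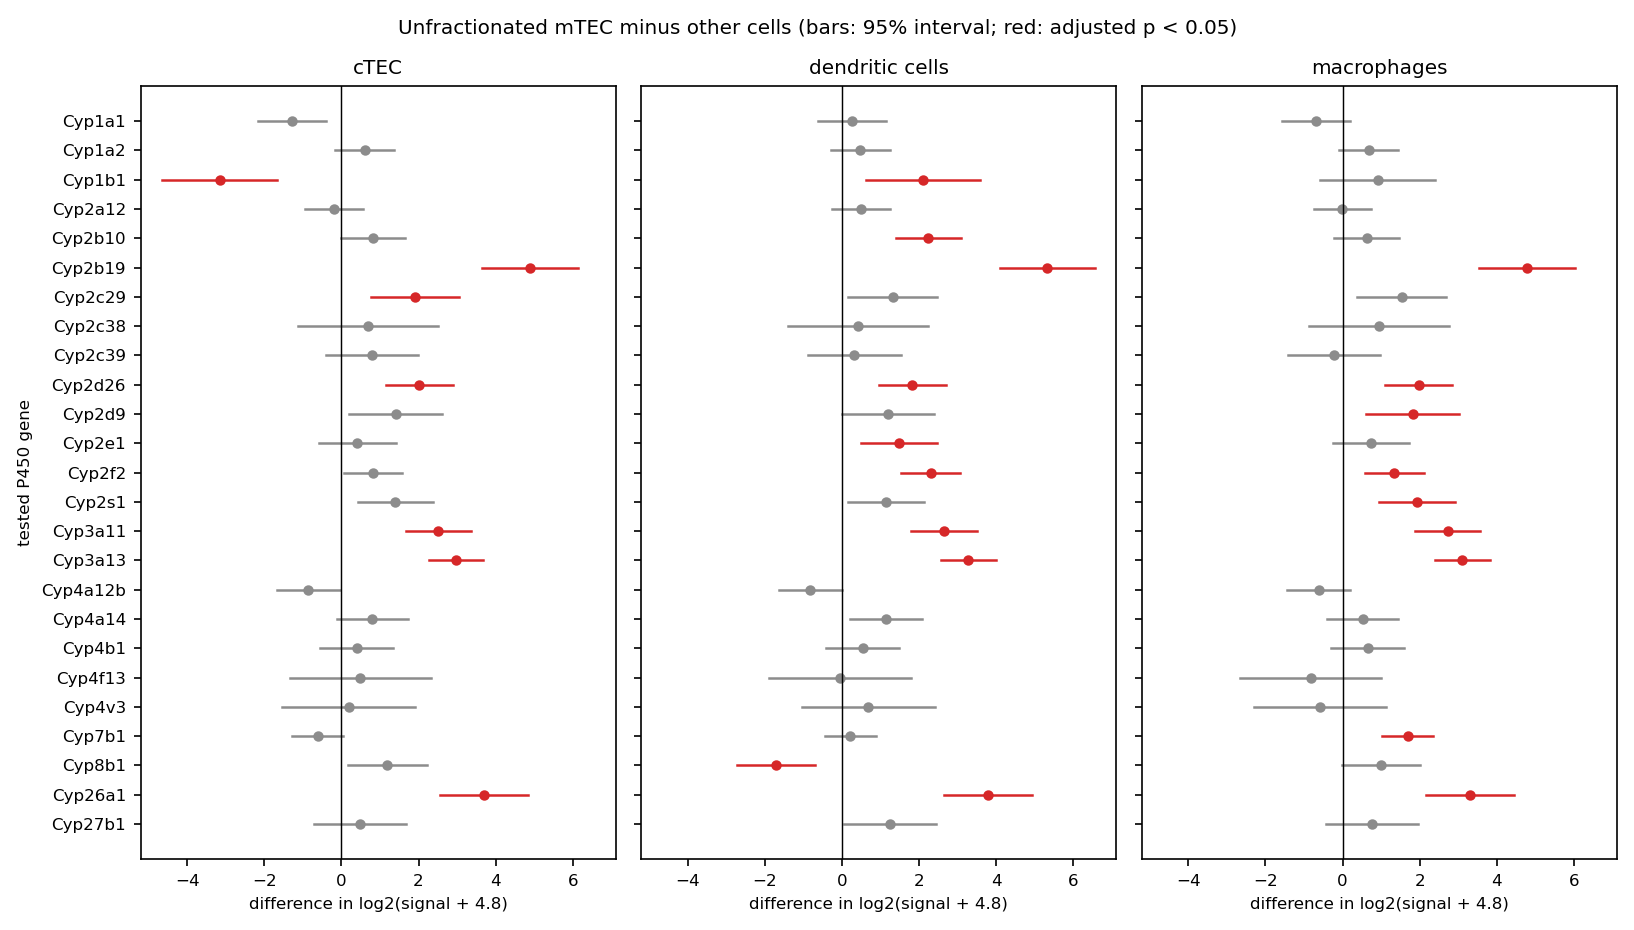
Unfractionated mTEC minus cortical epithelial cells (left), dendritic cells (middle) and macrophages (right) for the 25 tested P450 genes, as differences in log2(signal + 4.8) with 95% intervals of the limma fit; red marks an adjusted p under 0.05. Cyp2b19, Cyp26a1, Cyp3a13, Cyp3a11 and Cyp2d26 are red and right of 0 in all 3 panels, and Cyp1b1 is red on opposite sides against cortical and dendritic cells. For Cyp26a1, Cyp3a13, Cyp3a11 and Cyp2d26 the filter favoured higher mTEC signals.

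Within families 4 and 7 some genes were bright without a call in the comparisons of CD80 fraction or genotype. Cyp4v3, a fatty acid hydroxylase known from the retina, read 276.4 and 249.7 in wild-type CD80hi cells. It read 66.7 and 143.3 in knockout CD80hi, 72.2 and 80.8 in wild-type CD80lo and 61.3 and 100 in knockout CD80lo cells. Its unfractionated signals were 152.2 and 305.9 in mTEC, 189.5 and 188.7 in cortical cells, 77.7 and 225.1 in dendritic cells and 97.4 and 1063.5 in macrophages, so that macrophage array 2 lay above every other array and array 1 within their range. Its wild-type CD80hi minus CD80lo difference was 1.72 ± 0.80 (adjusted p = 0.21). Cyp7b1 was highest in cortical cells, at 109 and 102.8, and read 54.2 and 60.7 in dendritic, 55.9 and 54.8 in wild-type CD80hi and 51.4 and 83.6 in knockout CD80hi cells. Cyp2c39, of family 2, was not called in any comparison and overlapped among most groups. It read 55.7 and 85.5 in knockout CD80hi, 56.8 and 46.9 in wild-type CD80hi, 26.4 and 55.5 in knockout CD80lo and 35.8 and 48.4 in wild-type CD80lo cells. Elsewhere it read 46.6 and 44.5 in mTEC, 58.6 and 8.7 in cortical cells, 30.7 and 40.8 in dendritic cells and 60.2 and 48.1 in macrophages. Among the 36 genes, 15 were called in at least 1 of the 8 comparisons and 21 in none, and family 4 had 0 calls in every one.

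The genes that serve or accompany P450 enzymes were counted by role. Of 18 genes of electron transfer and haem supply (14 tested), 1 passed in wild-type CD80hi against CD80lo cells, where 12.7% of all tested probe sets did. It was Alas1, the rate-limiting enzyme of haem synthesis, at 2411.1 and 1689.3 against 334.4 and 289.6 (2.68 ± 0.33, adjusted p = 0.000106), and it was also higher in knockout CD80hi cells (2990.5 and 2077.9 against 643.8 and 478.8, 2.16 ± 0.33, adjusted p = 0.000581). Of 25 receptors and regulators (17 tested), the vitamin D receptor Vdr was higher in CD80hi cells in wild type (118.4 and 85 against 20.8 and 19.8, 2.07 ± 0.36, adjusted p = 0.00149) and in knockout (100.3 and 87.9 against 21.7 and 17.8, 2.01 ± 0.36, adjusted p = 0.00192). The retinoic acid receptor Rarg was lower in wild type (7.9 and 4.5 against 25.2 and 28.8, -1.55 ± 0.41, adjusted p = 0.0207) and in knockout (3.9 and 5 against 50.3 and 23.4, -2.09 ± 0.41, adjusted p = 0.00324). The median differences of these lists in wild type were 0.03 and 0.19. The wild-type Rarg call was lost without any 1 of its 4 arrays (adjusted p 0.0577 to 0.172). The knockout Rarg call was lost with only the groups compared (0.0531) and without array 1 of both knockout groups (0.119).

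Of the other oxidising and hydrolysing enzymes, 7 of 20 tested genes were higher and 0 lower in CD80hi cells of wild type (median 0.54), where 7.98% and 4.74% of all tested probe sets were. In knockout cells 3 were higher and 5 lower (median -0.34), with a background of 5.93% and 6.87%. The 7 genes higher in wild-type CD80hi cells were the flavin monooxygenase Fmo5 (3.49 ± 0.42), the carboxylesterases Ces1d (3.22 ± 0.40) and Ces3a (2.15 ± 0.47), monoamine oxidase Maoa (2.15 ± 0.34), the epoxide hydrolase Ephx2 (2.09 ± 0.31), and the dehydrogenases Aldh1a7 (1.66 ± 0.32) and Adh7 (1.27 ± 0.35), with adjusted p-values of 8.83e-05 to 0.0248. In knockout against wild-type CD80hi cells 3 were lower, Fmo1 (-2.07 ± 0.50), Adh1 (-1.94 ± 0.36) and Aldh3a1 (-1.76 ± 0.42), and Maoa was higher (1.39 ± 0.34), with a list median of -0.74. The shares of all tested probe sets there were 2.88% lower and 0.172% higher. In CD80lo cells Ces1d was higher in knockout, at 338.4 and 468.8 against 88.7 and 49.8 (2.50 ± 0.40, adjusted p = 0.0102). Its CD80hi minus CD80lo gap between the genotypes was -3.46 ± 0.56 (adjusted p = 0.00758). Against cortical cells, dendritic cells and macrophages, unfractionated mTEC had 6, 15 and 11 of the 20 genes higher and 3, 0 and 1 lower. The shares of all tested probe sets were 11.1%, 16.8% and 14.6% higher and 4.25%, 7.58% and 7.37% lower.

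Of these, Adh7 was lost without wild-type CD80hi array 1 (0.201), CD80hi array 2 (0.0747) or CD80lo array 1 (0.226), and Ces3a without CD80hi array 2 (0.055) or CD80lo array 1 (0.0529). In the knockout comparison of CD80hi cells, Fmo1, Aldh3a1 and Maoa were each lost without any 1 of the 4 arrays (0.144 to 0.23, 0.0824 to 0.244 and 0.0902 to 0.315), and Adh1 without knockout array 1 (0.0819) or wild-type array 2 (0.101). All 4 calls were lost without array 1 of both knockout groups (0.0815 to 0.166). The Ces1d difference in CD80lo cells was lost without knockout array 2 (0.0981) or wild-type array 2 (0.249), without array 1 of both knockout groups (0.0752), with a constant of 1 (0.0889) and with only the groups compared (0.0707). Its gap between the genotypes was lost without wild-type CD80hi array 1 (0.0507), wild-type CD80lo array 2 (0.0557) or array 1 of both knockout groups (0.0583), and with a constant of 1 (0.058). Of 7 tested conjugating enzymes, Sult2b1 (1.82 ± 0.34, adjusted p = 0.00215) and Ugt2b5 (2.23 ± 0.51, adjusted p = 0.00913) were higher in wild-type CD80hi cells and none was lower. The shares of all tested probe sets were 7.98% and 4.74%. The Ugt2b5 call was lost without CD80hi array 2, CD80lo array 1 or CD80lo array 2. Of 3 P450 enzymes that carry other names, the thromboxane synthase Tbxas1 was lower in mTEC than in macrophages, at 38.5 and 41.9 against 352 and 468.2 (-3.19 ± 0.32, adjusted p = 7.43e-06). It was also called lower than in dendritic cells (-1.10), and Cyp51 higher than in dendritic cells (1.43) and macrophages (1.56). With only the groups compared these further calls were lost (0.0705, 0.116 and 0.0705). Of all tested probe sets 24.3% passed against dendritic cells and 22% against macrophages.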

How the data were processed

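RNA from 8 groups of sorted mouse thymus cells, 2 samples each, was measured on 16 arrays. The deposited values are linear signal intensities, 1 per probe set and array. Judged from the values, the authors scaled every array to a 2% trimmed mean near 100.1; the sources used here name no software, background correction or detection calls. The platform annotation listed 1 symbol for 10855 probe sets, several for 396 and none for 1193, and the symbols of all 36 P450 genes equal those of RefSeq.

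From these intensities, log2(signal + 4.8) was computed, where 4.8 is the 20th percentile of all values. Control probe sets (66) and those above 17.3, the 40th percentile, on fewer than 2 arrays (3103) were left out, which left 9319. All 16 arrays were fitted in limma 3.58.1 (R 4.3.3) with eBayes and an intensity trend, with 8 residual degrees of freedom, and p-values were adjusted by Benjamini-Hochberg, with a threshold of 0.05. The fit was tested on simulated data. A log2 fold change is a difference on this scale. Genes named with every array are those called in any of the 8 comparisons and the 2 with the highest mean signal in each group. Members, lists and tests were chosen with earlier results of these data known. The alternatives were other normalisation, constants, filters, variance models, samples fitted, blocks and probe set rules, and each array left out. Those chosen after seeing the data were the array batch of the unfractionated groups, leaving out array 1 of both knockout groups, and the same alternatives for related genes.

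The labels give replicate numbers that several groups share, without saying what a number marks. Deviations from the group means of same-numbered arrays correlated in all 6 pairs of the unfractionated groups (r from 0.279 to 0.526). They were treated as an array batch there, a term that the labels do not use. Among the CD80-sorted groups r was 0.517 between the knockout groups and 0.028 to 0.17 in the other 5 pairs. The knockout groups also correlated with dendritic cells and macrophages (0.335 to 0.383), and less with cortical cells and unfractionated mTEC (0.081 to 0.213). For the wild-type CD80-sorted groups against the unfractionated groups r was 0.027 to 0.143. Such shared deviations were thus not confined to the unfractionated groups.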

Additional observations from a re-analysis of the deposited data

Results flagged for a closer look

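For 2 P450 genes the CD80hi minus CD80lo difference differed between genotypes by the test of that difference itself (limma, adjusted over all tested probe sets). For Cyp3a11 the knockout difference minus the wild-type difference was -3.51 (SE 0.56, adjusted p = 0.00675), with both wild-type CD80hi arrays above both CD80lo arrays and both knockout CD80hi arrays below both CD80lo arrays. The knockout difference itself did not pass (adjusted p = 0.124). The probe set shared by Cyp3a16 and Cyp3a11 read 6.8 and 10.3 in knockout CD80hi against 3.1 and 6.1 in knockout CD80lo cells, and its difference between genotypes did not pass (-1.29, adjusted p = 0.516). For Cyp8b1 it was -3.74 (SE 0.67, adjusted p = 0.0132), with the same arrangement of arrays. Groups of 2 arrays are too small to look for single arrays that stand apart.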

How the results depend on the processing

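Of 566 values of the 45 pairs of a called gene and a comparison under alternatives, 486 kept their direction and passed, 80 kept their direction without passing and 0 reversed; 25 of the 45 pairs passed under every alternative run. Of the 80, 56 came from leaving out 1 array. A gene that an alternative filter left out gave no value there and did not count as lost. The stricter filter (signal over 50, which left 10 P450 genes tested) left out Cyp3a11 and Cyp2d26, so their pairs were not judged under it. The count of P450 genes called in wild-type CD80hi against CD80lo cells was 9. It was 5 with a constant of 1 and 14 with only the groups compared, for causes not tested. With the stricter filter it was 5. With 1 array left out it was 4 to 5, and the count of all probe sets called was 626 to 681, against 1186. For knockout against wild type in CD80hi cells (3) it was 0 with the stricter filter, 1 without array 1 of both knockout groups and 0 to 2 with 1 array left out. In CD80lo cells it was 0 throughout. For knockout CD80hi against CD80lo cells (5) it was 3 without array 1 of both knockout groups and 3 to 5 with 1 array left out. For the difference between genotypes (2) it was 0 with the stricter filter, 1 without array 1 of both knockout groups and 1 to 2 with 1 array left out. Against cortical cells, dendritic cells and macrophages (7, 10 and 9) it was 4, 6 and 5 with the stricter filter, and 5 to 9, 7 to 10 and 6 to 11 with 1 array left out. With the replicate number as a block the 8 counts were 10, 4, 0, 7, 3, 9, 10 and 10, in the order above, and the block ended no call of a named P450 gene; as a block of the unfractionated groups alone it gave 9, 11 and 10. Quantile normalisation moved the median difference of all probe sets from -0.03 to -0.15 against cortical cells, 0.10 to -0.16 against dendritic cells, 0.01 to -0.13 against macrophages, and -0.05 to 0.06 for knockout against wild-type CD80hi cells. Leaving out 1 array leaves 1 array in that group. In each of the 8 comparisons it lowered the count of all probe sets called, so such losses were not particular to P450 genes. With the deposited signals alone, depth is unknown, and the 2 arrays per group and the dimness of most P450 genes limit what could be detected.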

Other observations

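A probe set that the platform annotation gives to both Cyp2a5 and Cyp2a4, hydroxylases of coumarin and of testosterone in mice, is not counted above. It read 1181.8 and 1022.5 in wild-type CD80hi, 735.4 and 503.7 in knockout CD80hi and 1430.7 and 1073.8 in unfractionated medullary cells. On the other 10 arrays it did not exceed 53.1, with 53.1 and 36.1 for the wild-type CD80lo cells, 38.6 and 50.5 for the knockout ones, and 9.7 and 6.8 in dendritic cells. CD80hi cells were higher in wild type (4.50 ± 0.44, limma adjusted p = 2.14e-05) and in knockout (3.65 ± 0.44, adjusted p = 8.74e-05), and the knockout minus wild-type difference in CD80hi cells did not pass (-0.85 ± 0.44, adjusted p = 0.514). Unfractionated mTEC were higher by 4.99 than cortical cells, by 6.58 than dendritic cells and by 5.34 than macrophages (adjusted p = 5.97e-06, 3.34e-07 and 1.77e-06). The members of this pair cannot be told apart here.

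Of the 6 other probe sets with several P450 symbols, 2 passed in these comparisons. The one given to Cyp2d12 and Cyp2d9 read 31.1 and 26.6 in wild-type CD80hi, 4.1 and 14.8 in wild-type CD80lo and 1.5 and 2.4 in knockout CD80hi cells. It was higher in wild-type CD80hi than CD80lo cells (1.35 ± 0.41, limma adjusted p = 0.0428), a call lost without wild-type CD80hi array 1 (0.219), CD80hi array 2 (0.136) or CD80lo array 1 (0.413), after quantile normalisation (0.0711) and with a constant of 1 (0.0984). It was lower in knockout than in wild-type CD80hi cells (-2.32 ± 0.41, adjusted p = 0.0052), a call lost without wild-type array 1 (0.0748), wild-type array 2 (0.0511) or array 1 of both knockout groups (0.0514). The one given to Cyp3a16 and Cyp3a11 read 26.7 and 16.2 in wild-type CD80hi and 4.4 and 1.1 in wild-type CD80lo cells (1.80 ± 0.40, adjusted p = 0.00708), a call lost without CD80hi array 1 (0.0946) or CD80lo array 2 (0.0977). In knockout CD80hi cells it read 6.8 and 10.3 (-0.96 ± 0.40 against wild type, adjusted p = 0.34).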
